A study of Gossypium barbadense and Gossypium hirsutum with 4 samples.

Results

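A set of 113 probe sets gave a clear signal in fibers of *G. hirsutum* (*Gh*) and almost none in fibers of *G. barbadense* (*Gb*), out of 24029 probe sets on the cotton array. A probe set is a group of short oligonucleotides that together measure 1 transcript or a few related ones. A member had a log2 signal below 4 on both *Gb* arrays and of 6 or more on both *Gh* arrays. The limit of 4 serves as a floor, below which a signal was treated as not measurable. A total of 118 probe sets met these limits, and 5 of them, in clusters that the rule leaves out by name (among them chalcone synthase), are not described here. The rule also leaves out the few probe sets designed from *G. arboreum* and *G. barbadense* sequences. The members fall into 111 clusters, a cluster being a group of sequences whose probe set names share the prefix and the first number. The same signals chose the members and are described here, so that the difference between the genotypes is a property of the choice and not a finding, and no member carries a test of its own.

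Fibers were collected at 11 days post anthesis (dpa) according to the sample labels and the methods, whereas the results text of the study gives 10 dpa for the arrays. *Gb* is represented by the single accession VH8-4602 and *Gh* by the single accession Guazuncho 2, both grown untreated in a glasshouse, and species and accession cannot be told apart. RNA pooled from 4 plants was hybridized to Affymetrix cotton arrays, with 2 independent replicates per genotype, V.1 and V.2 for *Gb* and G.29 and G.30 for *Gh*. The comparison asks which transcripts differ between the elongating fibers of the 2 species.

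A cotton fiber is a single cell of the seed epidermis that elongates for weeks before it thickens its wall with cellulose. During elongation the cell builds a primary wall of cellulose, xyloglucan, pectin and structural proteins, takes up ions and sugars to keep its turgor, and makes large amounts of membrane lipid and sterol. Both species are allotetraploids that carry an A and a D subgenome, so that most genes have 2 near-identical copies, and many probe sets cannot tell these copies apart.

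Signals of the members on the *Gb* arrays ran from 1.81 to 3.96 (V.1, median 2.79) and from 1.72 to 3.95 (V.2, median 2.69). On the *Gh* arrays they ran from 6.01 to 12.31 (G.29, median 7.50) and from 6.02 to 12.38 (G.30, median 7.59). The groups do not overlap for any member, as the rule requires. The mean *Gh* signal lay between 6 and 7 for 43 members, between 7 and 8 for 29, between 8 and 10 for 27 and above 10 for 14, so that most of the set was of moderate brightness. The median difference, *Gb* minus *Gh*, was -4.88 on the log2 scale, against 0.04 over all probe sets, and it ran from -9.98 to -2.72. Because a signal below the floor has no reliable size, a fold is given as a lower bound, the mean *Gh* signal against the floor. These bounds ran from 4.14-fold to 316-fold with a median of 11.9-fold.

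**Figure D1:**
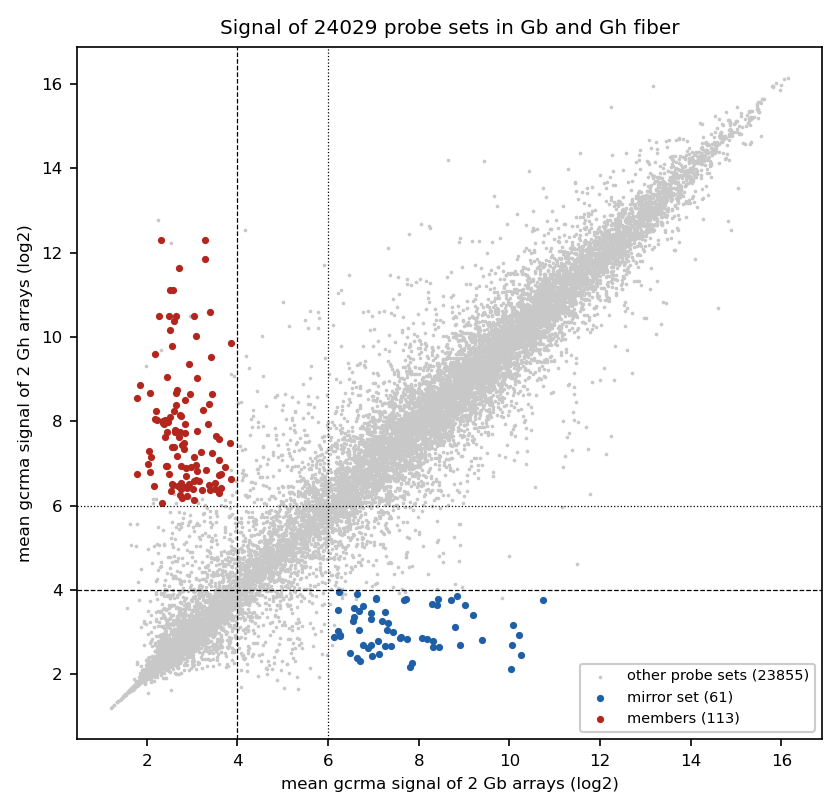
Mean log2 gcrma signal of every probe set on the 2 *Gb* arrays (x axis) and the 2 *Gh* arrays (y axis), with dashed lines at 4 and dotted lines at 6. The 113 members (red) lie left of 4 and above 6, and the 61 probe sets of the reverse pattern (blue) lie below 4 and right of 6.

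The same limits with the genotypes exchanged selected 61 probe sets, the mirror set. Of the 10050 probe sets with at least 6 on both *Gh* arrays, 1.12% were members, and of the 10010 with at least 6 on both *Gb* arrays, 0.609% belonged to the mirror set. The shares of probe sets below 4 on both arrays of a genotype were close, 48.2% in *Gb* and 47.8% in *Gh*. All 113 members passed an adjusted p of 0.05 in the limma fit over all probe sets (adjusted p 0.00106 to 0.0431, 2 arrays per genotype), beside 20.3% of all probe sets in either direction and 8.87% higher in *Gh*. With a Bonferroni adjustment of the same p-values 17 members passed, beside 0.137% of all probe sets in either direction and 0.0957% higher in *Gh*. Since the rule used this contrast, nothing is read from these counts. Leaving out V.2 ended the call for 14 members, leaving out V.1 for 12 and leaving out either *Gh* array for the same 4, and 96 members kept it whichever array was left out. The highest adjusted p of a member in these limma fits was 0.104. With 2 arrays per genotype an exact permutation test cannot give a p below 0.333.

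The members' signals also differed between replicate arrays, given here as a description. The median absolute difference between V.1 and V.2 was 0.10 for the members and 0.03 for the 9856 other probe sets with a mean *Gb* signal between 2 and 4. Between G.29 and G.30 it was 0.24 for the members and 0.12 for the 9456 other probe sets with a mean *Gh* signal between 6 and 13. No member differed by more than 0.82 between the *Gh* arrays, while 3 members differed by more than 1 between the *Gb* arrays. These were GhiAffx.16586.1.A1_at (3.76 and 2.42 on the *Gb* arrays), GhiAffx.25723.1.S1_at (3.36 and 2.34) and the RING protein GhiAffx.19824.1.S1_at (2.92 and 3.94). All of these values lie below the floor, where the order of signals is not meaningful.

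**Figure D2:**
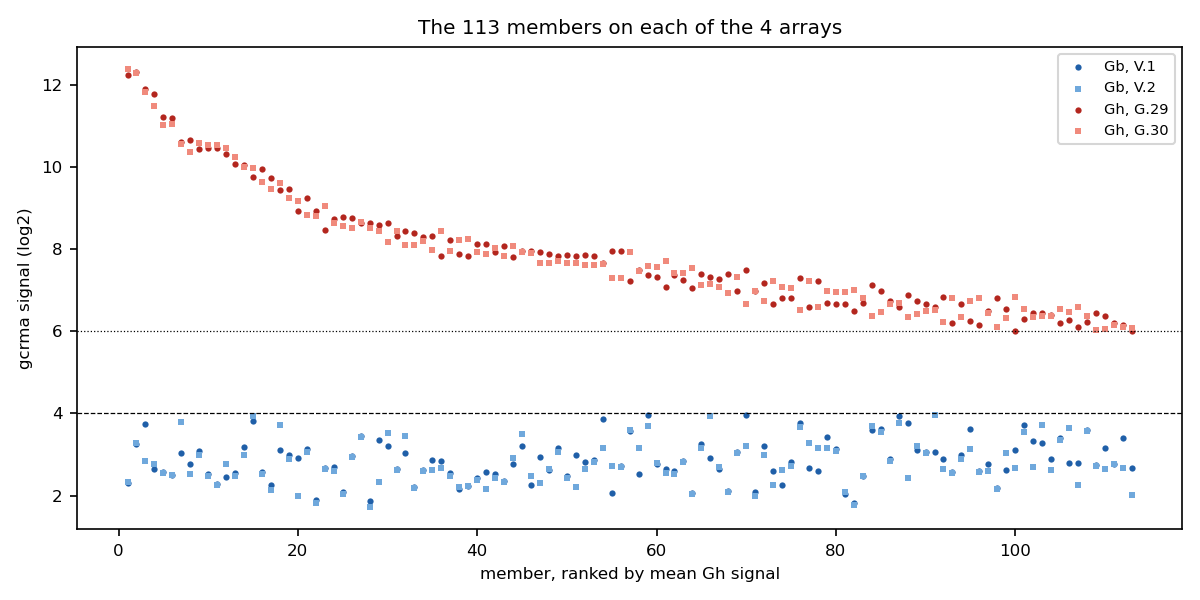
Log2 gcrma signal of each member on the 4 arrays, ranked by mean *Gh* signal (x axis), with the floor of 4 dashed and the minimum of 6 dotted. The *Gb* points stay between 1.72 and 3.96 along the whole ranking, while the *Gh* points decline from 12.38 to 6.01.

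The members nearest the limits show how narrow the rule is. The last ones inside the *Gb* floor were Ghi.3459.1.A1_at, an ABC transporter (3.96 and 3.70 in *Gb*, 7.36 and 7.59 in *Gh*), and the unnamed Ghi.7968.1.A1_x_at (3.96 and 3.22 in *Gb*, 7.48 and 6.66 in *Gh*). The first ones outside it were a beta-ketoacyl-CoA synthase, of the family that lengthens fatty acids (Ghi.9843.2.A1_at, 4.16 and 4.15 in *Gb*, 6.71 and 6.80 in *Gh*), and Ghi.451.1.S1_s_at (4.17 and 3.79 in *Gb*, 6.19 and 6.45 in *Gh*). Their highest *Gb* signals lay close to the limit on both sides of it, while the pair outside had lower mean *Gh* signals. At the *Gh* minimum, the last ones inside were GhiAffx.2147.1.S1_at, a retrotransposon, and the glutamate dehydrogenase Ghi.6500.1.S1_at, both at 6.01 on G.29. The first ones outside were a tyrosine-specific protein phosphatase (GhiAffx.22837.1.A1_at, 5.95 on G.29) and Ghi.3086.2.S1_s_at (5.98 on G.30), both below 4 on both *Gb* arrays.

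Of the 113 members, 111 occur among the 1159 rows of the study's differential gene table that served as a source of names. Only 39 of these (35.1%) carry a specific protein name, against 62.2% of the other 1048 rows. The remaining 74 members are known here by their probe set alone, and they include most of the brightest.

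The brightest member was Ghi.8424.1.A1_at, which has no protein name. Its log2 signal was 2.32 and 2.33 on the *Gb* arrays and 12.23 and 12.38 on the *Gh* arrays, at least 316-fold higher in *Gh*. Its mean *Gh* signal exceeded that of 94.9% of all probe sets. Ghi.4991.1.S1_x_at, also unnamed, had 3.26 and 3.29 in *Gb* against 12.31 and 12.27 in *Gh* (at least 313-fold). Both belong among the most strongly hybridizing probe sets of *Gh* fiber, and their replicate arrays lay within 0.16 of each other.

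GhiAffx.24915.1.A1_a_at had 3.75 and 2.84 in *Gb* and 11.88 and 11.81 in *Gh* (at least 230-fold). GhiAffx.10800.1.S1_at had 2.64 and 2.78 in *Gb* and 11.78 and 11.49 in *Gh* (at least 199-fold). Neither has a name. Ghi.1653.1.S1_at (2.58 and 2.56 in *Gb*, 11.22 and 11.02 in *Gh*) and Ghi.5012.1.A1_at (2.51 and 2.50 in *Gb*, 11.19 and 11.04 in *Gh*) were at least 139-fold and 138-fold higher. GhiAffx.51980.1.S1_s_at had 3.03 and 3.78 in *Gb* and 10.61 and 10.55 in *Gh*. Ghi.4151.1.S1_at, whose only match is a nematode protein of no stated function, had 2.78 and 2.53 in *Gb* and 10.65 and 10.36 in *Gh*. The next in rank were the ERF3-like and SKS4-like members, the brightest with a plant protein name.

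Names were grouped by function, and 37 members fell into 8 groups. The names rest on sequence similarity, mostly to Arabidopsis or rice proteins, so that a role given here is that of the similar protein. In every group all members passed the limma threshold, which the rule favors but does not assure. Group sizes were not set against the array as a whole because only rows higher in *Gh* carried names.

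**Figure D3:**
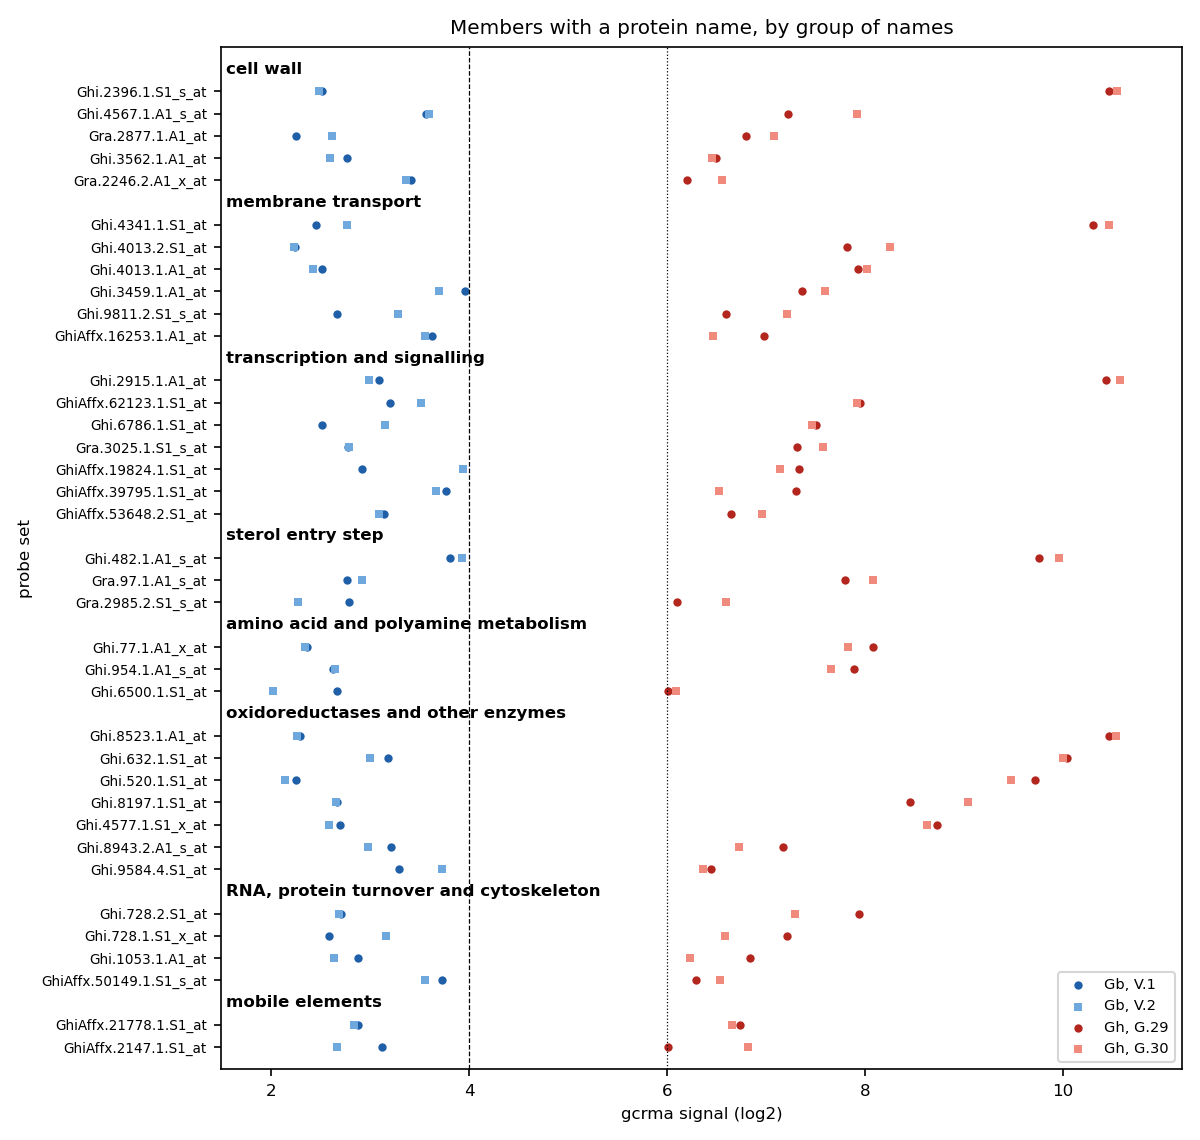
Log2 gcrma signal (x axis) of the 37 members with a protein name in 1 of 8 groups (y axis, by probe set) on each of the 4 arrays, with the floor of 4 dashed and the minimum of 6 dotted. The highest members of the cell wall, transport, signalling and enzyme groups lie above 10.

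Among 5 members with names of wall-related proteins, the brightest was Ghi.2396.1.S1_s_at, similar to SKS4 of Arabidopsis. SKS proteins resemble the multicopper oxidases, and their relative SKU5 takes part in directional cell growth in Arabidopsis roots. Its signal was 2.52 and 2.48 in *Gb* and 10.46 and 10.54 in *Gh*, at least 90.5-fold higher in *Gh*, with less than 0.1 between the arrays of either genotype. A glycosyl hydrolase (Ghi.4567.1.A1_s_at), of a class that cleaves wall polysaccharides, had 3.57 and 3.60 in *Gb* and 7.22 and 7.92 in *Gh*. A cinnamyl-alcohol dehydrogenase CAD1 (Gra.2877.1.A1_at), of the enzymes that complete the synthesis of lignin precursors, had 2.25 and 2.62 in *Gb* and 6.80 and 7.08 in *Gh*. Probe sets differ in affinity, so that signals of different members do not rank their transcripts. The cellulose synthase-like CSLE1 (Ghi.3562.1.A1_at, 6.49 and 6.45 in *Gh*), a relative of the cellulose synthases, and a probe set similar to the proline-rich wall protein PRP4 (Gra.2246.2.A1_x_at, 6.20 and 6.55 in *Gh*) lay close to the minimum. Their *Gb* signals were 2.77 and 2.60 for CSLE1 and 3.41 and 3.36 for PRP4. The call of the glycosyl hydrolase ended when either *Gb* array was left out.

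The group of membrane transport held 6 members. A protein translocase-like probe set (Ghi.4341.1.S1_at), named for moving proteins across a membrane, had 2.45 and 2.77 in *Gb* and 10.30 and 10.46 in *Gh* (at least 83.5-fold). Both probe sets of cluster Ghi.4013 were members, similar to ZIP10, of a family that carries zinc and iron into plant cells. Ghi.4013.1.A1_at had 2.52 and 2.42 in *Gb* and 7.93 and 8.02 in *Gh*, and Ghi.4013.2.S1_at had 2.24 and 2.23 in *Gb* and 7.82 and 8.25 in *Gh*. The 2 probe sets, designed from different sequences of the cluster, gave like signals in each genotype, at least 15.7-fold and 16.4-fold higher in *Gh*. The ABC transporter Ghi.3459.1.A1_at, similar to PDR12 of Arabidopsis, which is known for the uptake of abscisic acid, was at least 11.1-fold higher in *Gh*. A cation exchanger similar to CAX3 (Ghi.9811.2.S1_s_at), of a family that loads calcium into the vacuole, had 2.67 and 3.28 in *Gb* and 6.60 and 7.21 in *Gh*. An aquaporin-type major intrinsic protein (GhiAffx.16253.1.A1_at), of a family of water channels, had 3.63 and 3.56 in *Gb* and 6.98 and 6.46 in *Gh*. The call of the last 2 ended when either *Gb* array was left out.

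Among 7 members with names in transcription and signalling, Ghi.2915.1.A1_at is similar to ERF3 of Arabidopsis. ERF3 is a transcriptional repressor of the ethylene response factor family, and ethylene promotes fiber elongation in cultured cotton ovules. Its signal was 3.09 and 2.99 in *Gb* and 10.43 and 10.57 in *Gh*, at least 90.7-fold higher in *Gh*. The next, a MYB27 factor (GhiAffx.62123.1.S1_at), of a family in which several members direct fiber and trichome growth, had 3.20 and 3.51 in *Gb* and 7.95 and 7.92 in *Gh*. A serine/threonine kinase (Ghi.6786.1.S1_at) had 2.52 and 3.15 in *Gb* and 7.50 and 7.46 in *Gh*. Gra.3025.1.S1_s_at had 2.78 and 2.79 in *Gb* and 7.31 and 7.57 in *Gh*. It is only weakly similar to a protein called chloroplast nucleoid DNA-binding protein-related and is grouped here by that name alone. The BRCA1-associated RING protein (GhiAffx.19824.1.S1_at), of a class of zinc-binding domain proteins that includes many ubiquitin ligases, reached 7.33 and 7.14 in *Gh*. An EF-hand protein (GhiAffx.39795.1.S1_at), a calcium-binding type, had 3.77 and 3.67 in *Gb* and 7.30 and 6.52 in *Gh*, and a SAUR protein (GhiAffx.53648.2.S1_at), of the genes quickly induced by auxin, had 3.14 and 3.09 in *Gb* and 6.65 and 6.96 in *Gh*. Of these 7, the RING protein lost its call without either *Gh* array and the EF-hand protein without either *Gb* array.

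Squalene epoxidase, also called squalene monooxygenase, oxidizes squalene and opens the branch to the sterols, which are constituents of the plasma membrane. There were 3 members with such names. Ghi.482.1.A1_s_at, similar to XF1, a squalene epoxidase of Arabidopsis, had 3.81 and 3.93 in *Gb* and 9.76 and 9.96 in *Gh* (at least 58.2-fold). Gra.97.1.A1_s_at, similar to the rice enzyme, had 2.77 and 2.92 in *Gb* and 7.80 and 8.08 in *Gh* (at least 15.3-fold). Gra.2985.2.S1_s_at, similar to the same rice protein, had 2.79 and 2.27 in *Gb* and 6.10 and 6.59 in *Gh* (at least 5.08-fold). The 3 belong to different clusters, and all end in _s_at, the mark of a probe set whose probes match several transcripts, so that shared hybridization among them was not tested. Later enzymes of the pathway were readable in both genotypes. Cycloartenol synthase (GhiAffx.3624.1.S1_at), which closes the sterol rings, had 9.25 and 9.40 in *Gb* and 10.28 and 10.44 in *Gh*. Sterol C24-methyltransferase (Ghi.10022.2.S1_s_at), which adds a side-chain methyl group, had 8.13 and 7.55 in *Gb* and 9.60 and 9.71 in *Gh*. All 5 sterol names passed the limma threshold. So did 1005 of the 1159 rows that supplied names, all of them higher in *Gh*. Of the 5, the 3 members were below the floor in *Gb*, which the rule requires.

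The 3 members of amino acid and polyamine metabolism catalyze different steps. A dihydroxy-acid dehydratase (Ghi.77.1.A1_x_at), an enzyme of branched-chain amino acid synthesis, had 2.36 and 2.34 in *Gb* and 8.08 and 7.83 in *Gh*. An arginine decarboxylase similar to ADC1 (Ghi.954.1.A1_s_at), which starts polyamine synthesis from arginine, had 2.63 and 2.65 in *Gb* and 7.89 and 7.66 in *Gh*, at least 13.7-fold higher. Glutamate dehydrogenase 1 (Ghi.6500.1.S1_at), which links glutamate to organic acids, had 2.67 and 2.02 in *Gb* and 6.01 and 6.09 in *Gh* and was the dimmest member of the whole set.

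A further 7 members are oxidoreductases and other enzymes, with a median difference of -6.08. A zinc-binding oxidoreductase (Ghi.8523.1.A1_at) had 2.29 and 2.26 in *Gb* and 10.46 and 10.53 in *Gh* (at least 90.3-fold). An oxidoreductase-like protein (Ghi.632.1.S1_at), named by a rice protein, had 3.18 and 3.0 in *Gb* and 10.04 and 10.00 in *Gh* (at least 64.9-fold). Naphthoate synthase (Ghi.520.1.S1_at), an enzyme of phylloquinone synthesis, had 2.25 and 2.14 in *Gb* and 9.72 and 9.47 in *Gh* (at least 48.4-fold). These 3 were close to the top of the set, and their replicate arrays lay within 0.3 of each other. A transferase (Ghi.8197.1.S1_at) reached 8.45 and 9.04 in *Gh*, with 2.67 and 2.66 in *Gb*. Glycolate oxidase (Ghi.4577.1.S1_x_at), a peroxisomal enzyme of photorespiration, had 2.70 and 2.59 in *Gb* and 8.73 and 8.62 in *Gh* (at least 25.6-fold). A phosphoethanolamine and phosphocholine phosphatase (Ghi.8943.2.A1_s_at), which acts on head groups of membrane lipids, had 3.21 and 2.98 in *Gb* and 7.17 and 6.73 in *Gh*. The other zinc-binding oxidoreductase, Ghi.9584.4.S1_at, was much dimmer, at 3.29 and 3.73 in *Gb* and 6.44 and 6.36 in *Gh*.

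The last groups were small. Both probe sets of cluster Ghi.728, similar to a rice poly(A)-binding protein that coats the tails of mRNA, were members. Ghi.728.2.S1_at had 2.71 and 2.69 in *Gb* and 7.94 and 7.29 in *Gh*, and Ghi.728.1.S1_x_at had 2.59 and 3.16 in *Gb* and 7.21 and 6.58 in *Gh*. In both probe sets G.29 was the higher *Gh* array by more than 0.6. A ubiquitin conjugating enzyme (Ghi.1053.1.A1_at), which passes ubiquitin to proteins marked for breakdown, reached 6.84 and 6.23 in *Gh*, and a kinesin (GhiAffx.50149.1.S1_s_at), a motor on microtubules, 6.29 and 6.53. The *Gb* signals were 2.88 and 2.64 for the former and 3.73 and 3.56 for the latter. The retrotransposons GhiAffx.21778.1.S1_at (2.88 and 2.84 in *Gb*, 6.74 and 6.66 in *Gh*) and GhiAffx.2147.1.S1_at (3.12 and 2.67 in *Gb*, 6.01 and 6.82 in *Gh*) are mobile elements that copy themselves through RNA. The 2 named members outside these groups were a myrosinase-binding protein (Ghi.14.1.S1_at, 6.25 and 6.74 in *Gh*), of a family of lectins known from Brassica, and MEE12 (GhiAffx.1480.1.S1_at, 6.66 and 6.49 in *Gh*), named for the arrest of Arabidopsis embryos. Calls of Ghi.1053.1.A1_at, Ghi.728.1.S1_x_at and GhiAffx.2147.1.S1_at ended without either *Gb* array, and that of Ghi.14.1.S1_at without V.2.

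Relatives of the members by name were examined among the same 1159 rows, all of which the study had selected as higher in *Gh* on these arrays, so that their direction is no independent evidence. Of these rows, 1005 passed the limma threshold. Among 7 names of the AP2/ERF family, 5 passed. Both *Gb* arrays were below the floor for 5 of the 7, and of these the ERF3-like member alone reached 6 on both *Gh* arrays. Another of these, GhiAffx.7865.1.S1_at, had 3.58 and 3.47 in *Gb* and 5.95 and 5.78 in *Gh*, just under the minimum. A probe set similar to the repressor ERF4 (Ghi.6808.1.S1_s_at) had 5.77 and 5.62 in *Gb* and 8.33 and 8.32 in *Gh*, and was readable in both. Among 6 MYB names 5 passed, and 4 were below the floor on both *Gb* arrays, 1 of them the member. The probe sets similar to MYB73 were bright in both genotypes (Ghi.9954.2.A1_s_at, 8.96 and 9.06 in *Gb*, 10.01 and 10.18 in *Gh*).

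Of 5 names of metal transporters, 4 passed, and 3 were below the floor on both *Gb* arrays, among them the 2 members of cluster Ghi.4013. Another probe set named as a ZIP transporter (GhiAffx.26098.1.S1_at) was bright in both genotypes, at 8.11 and 8.35 in *Gb* and 10.88 and 10.79 in *Gh*. Of 7 ABC transporter names 6 passed, and the PDR12-like member was the only one below the floor in *Gb*. Of 3 copper protein names all passed, and the other 2 were a blue copper protein (GhiAffx.16779.1.S1_x_at, 5.52 and 4.48 in *Gb*, 8.32 and 8.43 in *Gh*) and a laccase (Gra.3026.3.S1_s_at, 7.85 and 7.72 in *Gb*, 9.67 and 9.84 in *Gh*). Of 10 names of the auxin response 8 passed, and 4 were below the floor on both *Gb* arrays. Besides the SAUR member, those that passed include the SAUR probe set GhiAffx.42518.1.S1_at. It had 4.54 and 3.57 in *Gb* and 7.48 and 7.33 in *Gh*, and missed the rule on V.1 alone. Both kinesin names passed, and the kinesin that is not a member (GhiAffx.26362.1.S1_s_at) had 7.64 and 7.82 in *Gb* and 9.18 and 8.93 in *Gh*. Of 6 names of mobile elements 4 passed, 2 of them members, and 4 were below the floor on both *Gb* arrays.

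Where the array holds other probe sets of a member's cluster, their signals are set beside those of the member. A total of 33 members had such a relative. A relative below 4 on all arrays, *Gh* included, cannot show whether its gene lacks a signal in *Gb*. Cluster GhiAffx.1589 is a special case, since it holds 64 other probe sets with mean *Gh* signals from 1.69 to 14.97, and 45 of them were at 4 or more on all arrays. Its names include a pre-mRNA-splicing factor (GhiAffx.1589.35.S1_at) and a heavy metal transporter (GhiAffx.1589.40.S1_at), so that it does not stand for 1 gene. Its member, GhiAffx.1589.99.S1_at, had 2.11 and 2.09 in *Gb* and 7.40 and 6.92 in *Gh*. Outside this cluster 35 relatives that are not members were found in the clusters of 28 members.

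Of these, 20 were designed for the other strand of the very sequence from which the member was made (the letters S and A in a name stand for sense and antisense to that sequence). Of the 20, 18 were below 4 on all 4 arrays, with no signal above 3.58, so that 1 strand alone gave a signal in *Gh*. Over the 1282 probe sets of this kind paired with other sequences bright in *Gh*, 64.1% were below 4 on all arrays. Those sequences were taken whatever their *Gb* signal, unlike the members, and the share is given as a description. The exceptions were the partners of the unnamed Ghi.4991.1.S1_x_at and Ghi.6161.1.A1_s_at. The partner Ghi.4991.1.A1_at had 2.81 and 2.68 in *Gb* and 5.96 and 5.15 in *Gh*, so it too was readable in *Gh* and not in *Gb*.

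The unnamed members whose opposite strand stayed below 4 on all arrays differed widely in *Gh* signal. GhiAffx.51029.1.S1_s_at had 2.58 and 2.53 in *Gb* and 9.94 and 9.64 in *Gh*. Ghi.596.1.S1_at had 3.11 and 3.73 in *Gb* and 9.44 and 9.60 in *Gh*, while its partner lay between 2.32 and 2.33. Ghi.9030.1.S1_at (1.90 and 1.81 in *Gb*, 8.92 and 8.81 in *Gh*), Ghi.8891.1.S1_at (3.46 and 3.42, 8.62 and 8.65) and Ghi.8864.1.S1_at (3.04 and 3.46, 8.43 and 8.09) also exceeded 8 on both *Gh* arrays. The dimmer ones of this kind were Ghi.10731.2.S1_at, Ghi.6345.2.S1_at, Ghi.3800.1.A1_at, Ghi.3944.1.S1_x_at, Ghi.904.1.S1_s_at, GhiAffx.46892.1.S1_at and GhiAffx.29393.1.S1_s_at, with *Gh* signals from 6.16 to 7.53. The calls of Ghi.904.1.S1_s_at, GhiAffx.46892.1.S1_at and Ghi.6161.1.A1_s_at ended when either *Gb* array was left out. Ghi.3858.2.A1_at (2.77 on both *Gb* arrays, 6.21 and 6.16 in *Gh*) has a relative from another sequence, Ghi.3858.3.S1_at, that was below 4 on all arrays.

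In cluster Ghi.6161 the member is the dim partner. Ghi.6161.1.A1_s_at had 2.18 and 2.16 in *Gb* and 6.80 and 6.11 in *Gh*, whereas the opposite strand, Ghi.6161.1.S1_s_at, had 5.52 and 4.78 in *Gb* and 10.34 and 10.19 in *Gh*. A probe set from another sequence of the cluster, Ghi.6161.2.S1_x_at, had 6.61 and 5.95 in *Gb* and 11.19 and 11.05 in *Gh*. Both were thus readable in *Gb* and lower there, with differences (*Gb* minus *Gh*) of -5.12 and -4.84. The antisense probe set of that other sequence, Ghi.6161.2.A1_x_at, had 2.87 and 2.79 in *Gb* and 5.53 and 4.65 in *Gh*, below the floor in *Gb* and under the minimum in *Gh*.

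Other relatives behaved differently from their member. Of 15 relatives from another sequence of a cluster, 10 were below 4 on all arrays, and 3 were at 4 or more on both *Gb* arrays, of which Ghi.6161.2.S1_x_at is 1. Ghi.9584.1.S1_x_at, in the cluster of the dim oxidoreductase, had 13.82 and 13.60 in *Gb* and 13.28 and 13.26 in *Gh*, among the brightest probe sets in both. Ghi.6539.1.S1_s_at had 6.26 and 6.35 in *Gb* and 5.02 and 5.06 in *Gh* and was higher in *Gb*, while the member of its cluster, Ghi.6539.2.A1_at, had 2.44 and 2.37 in *Gb* and 8.12 and 7.93 in *Gh*. For these 2 clusters a lack of signal in *Gb* holds for the member's sequence and not for the cluster. Gra.2246.1.A1_at, similar to PRP4 like the member of its cluster, had 2.37 and 2.36 in *Gb* and 3.78 and 4.06 in *Gh*.

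**Figure D4:**
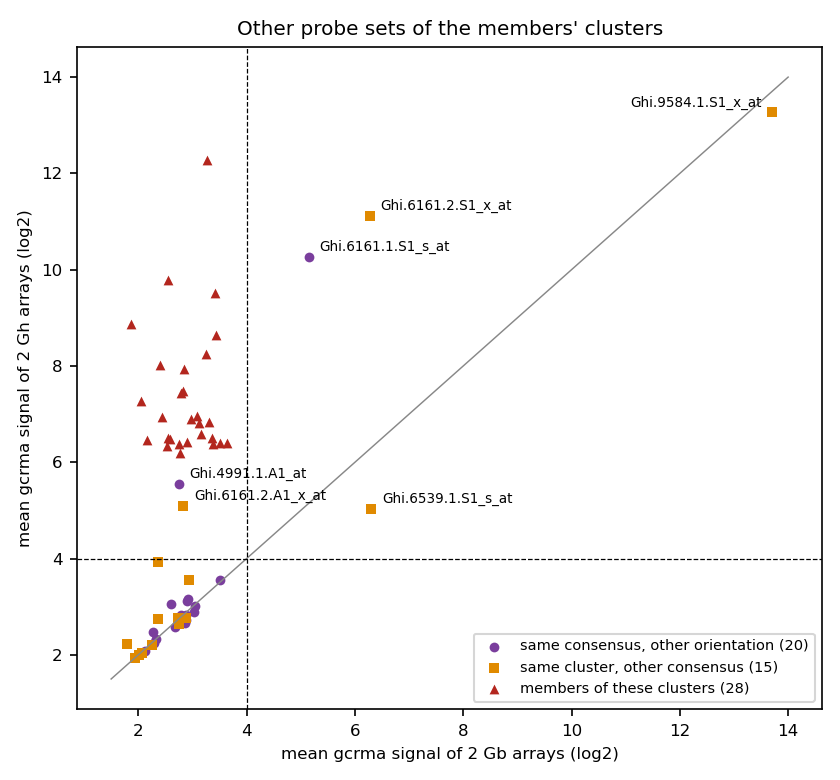
Mean log2 gcrma signal on the *Gb* arrays (x axis) and *Gh* arrays (y axis) of the 35 other probe sets in the clusters of 28 members (circles, other strand of the same sequence, 20; squares, other sequence of the cluster, 15) and of those members (triangles), with dashed lines at 4 and the line of equal signal in grey. Most circles and squares lie below 4 in both genotypes, and Ghi.6161.1.S1_s_at and Ghi.6161.2.S1_x_at lie above 4 in *Gb* and above 10 in *Gh*.

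Most probe sets of the array were designed from *G. hirsutum* sequences, and the few designs from *Gb* are left out by the rule. The part of the design in the members' signals was not tested. Of the members, 107 (94.7%) were designed from *G. hirsutum* and 6 (5.31%) from the diploid *G. raimondii*, against 69.9% and 29.4% of all probe sets. Among probe sets of at least 6 on both *Gh* arrays, 1.21% of those from *G. hirsutum* and 0.487% of those from *G. raimondii* were members. In the mirror set the shares were 0.604% and 0.650% of the probe sets bright in *Gb*. The share is thus higher for *G. hirsutum* designs among the members and nearly even in the mirror set, a difference that was not tested. The *G. raimondii* shares rest on only 6 members and 8 probe sets of the mirror set. Whether the probes match the *Gb* transcripts was not tested, since no probe or transcript sequence was used here.

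Probe sets with names ending in _at alone, which the design holds to be specific to 1 transcript, made up 79 members (69.9%) against 53.0% of all probe sets. Those ending in _s_at, shared among several transcripts, made up 23 members (20.4%) against 38.7%. Among probe sets bright in *Gh*, 1.83% of the former and 0.481% of the latter were members, and in the mirror set the shares of those bright in *Gb* were 0.864% and 0.460%. Antisense designs made up 36 members (31.9%) against 44.3% of all, but 1.25% of the antisense and 1.08% of the sense designs bright in *Gh* were members.

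**Figure D5:**
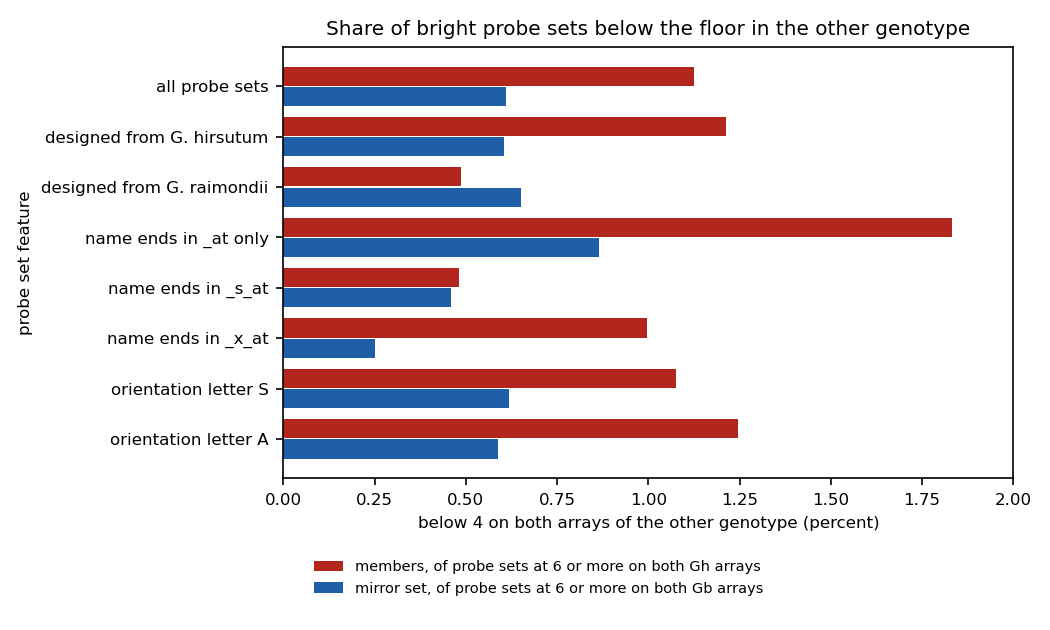
Share (percent, x axis) of bright probe sets that were below 4 on both arrays of the other genotype, by feature of the probe set (y axis), for the members (red) and the mirror set (blue). The members' share is 1.21% for *G. hirsutum* and 0.487% for *G. raimondii* designs, whereas the mirror set has 0.604% and 0.650%.

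The fiber names in the table, 12 probe sets for lipid transfer proteins, expansins, tubulins, sucrose synthase and arabinogalactan proteins, were readable in both genotypes, with mean signals from 5.5 to 13.53 in *Gb* and from 7.37 to 14.68 in *Gh*. Of the 12, 10 passed the limma threshold. The tubulin Ghi.4629.2.S1_s_at is also named as a phenylcoumaran benzylic ether reductase. Ghi.6271.2.S1_s_at, similar to a predicted rat tubulin, is also named as a hypothetical tobacco protein and did not pass. None of the 12 is a member. Their summed signal was 15.21 and 15.24 on the *Gb* arrays and 16.57 and 16.58 on the *Gh* arrays (log2 of the sum). Names of other tissues moved in the same direction, as every row of the table does. The 3 photosynthesis names summed to 7.50 and 8.07 in *Gb* and 9.79 and 9.44 in *Gh*, 1 of 3 passing the limma threshold and 1, a photosystem I subunit, lying below the floor in *Gb*. The 3 names of the proanthocyanidin branch of the seed coat summed to 13.59 and 13.44 in *Gb* and 14.71 and 14.75 in *Gh*. The only late embryogenesis name (Ghi.6309.2.A1_at) had 9.57 and 9.21 in *Gb* and 10.42 and 10.64 in *Gh*. That probe set is also named as a gibberellin receptor, so that its identity is uncertain. The part of other tissues in the members' signals was not tested. In bulk RNA fewer cells of a type and less RNA per cell cannot be told apart. RNA quality was read from cotton control transcripts that are probed at both ends. The signal at the 5' end minus that at the 3' end was lower in *Gb* without overlap of the arrays. Mean log2 differences were -0.70 for actin, -0.84 for ss1 and -0.30 for ubq11. For ubq11 the nearest arrays hardly differed (-1.80 on V.2, -1.79 on G.29), and G.30 had the highest value for each control. The part of RNA quality in the members' signals was not tested either.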

How the data were processed

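The deposited values are log2 signals that the authors obtained by normalizing 4 Affymetrix arrays together with gcrma (their processing notes write GCRMA, without a version). The 103 control probe sets were left out of 24132. Members were chosen on the deposited signals with a floor of 4 and a minimum of 6. A model with 1 term for genotype was fitted in limma 3.58.1 under R 4.3.3 (two-sided, moderated by eBayes, Benjamini-Hochberg over 24029 probe sets, threshold 0.05, prior of 1.10 degrees of freedom) to all 4 arrays and tested on simulated data. These counts stand beside the members' values only as background. Plots used matplotlib 3.10.9. Without detection calls, the number of arrays limits the precision.

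The members, lists and named-gene rule were chosen with earlier results of these data known. Named were all members with a protein name, the 10 brightest, those with relatives in their cluster and the nearest to each limit. Other probe sets of named families, and members with *Gb* arrays over 1 apart, were named after their values were seen. Names came only from the text columns of the first 1159 rows of the study's differential gene table, all higher in *Gh*. Its values were not used, and neither were the sequencing data. Alternatives were other floors, minimums, normalizations, priors and tests, and leaving out each array.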

Additional observations from a re-analysis of the deposited data

How the results depend on the processing

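The number of members was 174 with a floor of 5 and 34 with a minimum of 8, other limits and normalizations gave 86 to 144, and 79 remained without names ending in _x_at, _s_at or _a_at. Leaving out 1 array, which can only add members, gave 123 to 126. The mirror set held 39 probe sets with a floor of 3.5, 124 with a floor of 5, 18 with a minimum of 8 and 37 without those names. Leaving out 1 array gave 2542 to 3947 called probe sets in all and 99 to 109 called members. In these fits the lone array is assumed to vary like the other genotype. With the Bonferroni adjustment 33 probe sets and 17 members were called. A common-variance test modeled on the t-test of the methods used normal p-values and variance limits that the methods do not state. It called 7559 probe sets with Benjamini-Hochberg adjustment and 4187 with the Bonferroni adjustment that the methods name. It gave no value for 1092 whose variance fell outside its limits, 18 members among them, and called the other 95. Scaling to the hybridization controls called 7747 (25.7% higher in *Gb*, against 56.3% as deposited) and gave a median difference of -5.18 over the members. The cause of these changes was not tested, but this scaling shifts every difference by -0.29. By construction it turned the sign of 18 of the 35 relatives, all below 4 on all arrays, of which 1 was called (GhiAffx.29393.1.A1_x_at, turned to -0.10). With the *Gb* signals set to the floor, the median difference of the members was -3.57. The gap that the rule sets leaves no room for a change of sign in the members. No paired analysis was possible because the replicate numbers differ between the genotypes, and no slide or scan date is named to serve as a block.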
